A study of Mus musculus with 21 samples.

Results

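The B cell and lymphoid aggregate genes were 9 genes chosen by symbol, and all 9 were found among the 21657 genes of the count tables. Cxcl13, Ccl19 and Ltb encode signals that organise lymphoid tissue, Cxcr5 and Ccr7 encode the receptors of those chemokines, and Ms4a1, Cd79a, Cr2 and Fcer2a encode B cell surface proteins. Their transcripts were read in kidney RNA of female apoE KO mice, which lack apolipoprotein E and become hyperlipidemic, and the deletion was carried by the controls too. Con mice (n = 5) ate a chow diet, Ade mice (n = 6) ate chow with adenine, which injures the renal tubules, and Ade + IMC mice (n = 6) ate the adenine diet with iodomethylcholine, a choline analog that blocks the gut microbial enzyme forming trimethylamine. Feeding began at 4 weeks of age and lasted 14 weeks, so the mice were 18 weeks old at the end. A group of 4 Con + IMC mice was not analysed here, which left 17 of 21 mice. Each library is 1 mouse, so p-values below measure the spread between mice.

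In a chronically inflamed organ, lymphocytes can gather in clusters outside the lymph nodes that resemble follicles. The cytokine lymphotoxin, part of which is encoded by Ltb, acts on stromal cells through its receptor and the non-canonical NF-kB pathway, and these cells then make the chemokines CXCL13 and CCL19. CXCL13 attracts B cells and follicular helper T cells that carry CXCR5, while CCL19 attracts T cells and mature dendritic cells that carry CCR7. CD20 (Ms4a1) and the antigen receptor chain CD79A mark B cells in general. CD21 (Cr2), a receptor for complement fragments that is also found on follicular dendritic cells, and CD23 (Fcer2a), the low-affinity IgE receptor, mark mature B cells.

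All positions are those of GRCm38, the build also called mm10. Among the members are Cxcl13 (ENSMUSG00000023078, chromosome 5, 95956951 to 95961068, plus strand), Cr2 (ENSMUSG00000026616, chromosome 1, 195136811 to 195176716, minus strand) and Fcer2a (ENSMUSG00000005540, chromosome 8, 3681737 to 3694175, minus strand). The upstream sequences of these 3 genes are shown because Cxcl13 had one of the largest differences between the diets, Cr2 was the member that did not follow the others, and Fcer2a is the other marker of mature B cells and did follow them. They are the bases before a RefSeq start of transcription in GRCm38.p6, 5′ to 3′ on the strand of the gene, at chr5:95956689-95956938 on the plus strand, chr1:195176720-195176969 on the minus strand and chr8:3694176-3694424 on the minus strand. Capitals mark GGG followed after 5 free bases by CC, a loose form of the site that NF-kB proteins bind, or TATAAA, the TATA box.
Cxcl13: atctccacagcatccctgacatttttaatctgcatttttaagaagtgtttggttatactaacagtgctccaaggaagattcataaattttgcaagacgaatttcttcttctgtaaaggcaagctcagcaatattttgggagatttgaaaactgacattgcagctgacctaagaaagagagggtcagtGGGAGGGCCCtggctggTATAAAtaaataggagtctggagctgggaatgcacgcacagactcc
Cr2: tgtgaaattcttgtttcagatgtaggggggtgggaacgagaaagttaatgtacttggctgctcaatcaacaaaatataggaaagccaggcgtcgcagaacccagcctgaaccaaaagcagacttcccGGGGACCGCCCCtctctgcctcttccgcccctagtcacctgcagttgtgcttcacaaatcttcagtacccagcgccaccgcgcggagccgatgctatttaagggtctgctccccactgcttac
Fcer2a: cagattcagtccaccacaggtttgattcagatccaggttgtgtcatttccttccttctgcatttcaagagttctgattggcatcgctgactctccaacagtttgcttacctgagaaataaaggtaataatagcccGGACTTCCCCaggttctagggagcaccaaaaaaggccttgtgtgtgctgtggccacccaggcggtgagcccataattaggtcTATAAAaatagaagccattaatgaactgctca

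On either strand, GGG and CC at this spacing stood in all 3 windows, with the first base 63 bases before the start in Cxcl13, 123 in Cr2 and 115 in Fcer2a, and the matches in Cr2 overlap each other. They were also in 45.8% of the 32851 promoter windows of the RefSeq table when its 250 upstream bases were searched, so a match does not set these genes apart. TATAAA stood 46 bases before the start of Cxcl13 and 33 bases before that of Fcer2a, against 12.4% of all promoters, and was not among the letters of the Cr2 window. Also searched were ATGCAAAT, the octamer of immunoglobulin promoters (1.6% of all promoters), TCCC followed after 2 free bases by GGGA, the core of the site of the B cell factor EBF1 (0.779%), and GAGGAA, an Ets core (23.3%), and none of these was in the 3 windows. For Fcer2a the RefSeq table holds 3 starts, of which the outermost is shown, and the windows of the other 2 held none of the letters searched.

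The other members are Cxcr5 (ENSMUSG00000047880, chromosome 9, 44511787 to 44561877, minus strand), Ccl19 (ENSMUSG00000071005, chromosome 4, 42754525 to 42756577, minus strand) and Ccr7 (ENSMUSG00000037944, chromosome 11, 99144196 to 99155077, minus strand). So are Ltb (ENSMUSG00000024399, chromosome 17, 35194439 to 35196320, plus strand), Ms4a1 (ENSMUSG00000024673, chromosome 19, 11249675 to 11266241, minus strand) and Cd79a (ENSMUSG00000003379, chromosome 7, 24897381 to 24902197, plus strand). Ccl19 is uncertain, since 52.0% of the 50-base windows of its transcripts recur in 4 other genes, among them the pseudogenes Ccl19-ps1 and Ccl19-ps3. In Cd79a 8.31% of windows recur in Gm32220. Cxcr5 shares 110 exon bases with Bcl9l on the opposite strand, and whether the counting used strand is not given in the sources used here.

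Levels are given as normalized counts, which are reads divided by the size factor of the library, so that libraries of unequal depth can be compared. Total counts ranged from 7716126 to 11680809 in Con mice and from 5444833 to 8305968 in adenine-fed mice. Kidney markers were abundant in every library, with Umod, which encodes uromodulin of the thick ascending limb, at 14966 to 48387. Havcr1, which encodes the tubular injury marker KIM-1, was at 1.01 to 6.86 in Con mice and at 164 to 1989 in adenine-fed mice. The summed level of 10 kidney genes was 136998 to 185354 in Con mice and 46761 to 111385 in adenine-fed mice, and 7 of these genes were called lower in each adenine-fed group against Con, or 6 in Ade + IMC without mouse 311. Mouse 311 (Ade + IMC) was the highest mouse of its group in 9 of 9 members and mouse 308 (Ade) in 8 of 9, so members' fold changes over Con that moved by over 1.5 times without them, and calls that changed, are given with and without them. Mouse 308 also had the lowest total count.

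Adenine feeding went with higher levels of 8 of the 9 members. In Ade against Con, 7 of the 8 members tested were called higher and 0 lower, where a gene was called at an adjusted p-value below 0.1 (edgeR's quasi-likelihood test, Benjamini-Hochberg adjustment over all 14612 genes tested). Over all genes tested, 35.1% were called higher and 32.2% lower. Ccl19 failed the filter on low counts and Cr2 was not called. Most members were nearly absent in Con and passed the filter through the adenine-fed mice, so being tested already favoured a higher call. With no filter 8 of the 9 members were called higher and 0 lower, against 29.2% and 24.6% of all 21004 genes. Their median log2 fold change was then 3.60, against 0.06 over all genes. The values of the members in Ade and in Con mice did not overlap for 8 of 9 members, all with Ade above Con, against 17% of all 21004 genes with a read that lay above Con and 15.3% below. In RNA of whole tissue, more cells of a type and more RNA per cell cannot be told apart.

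**Figure D1:**
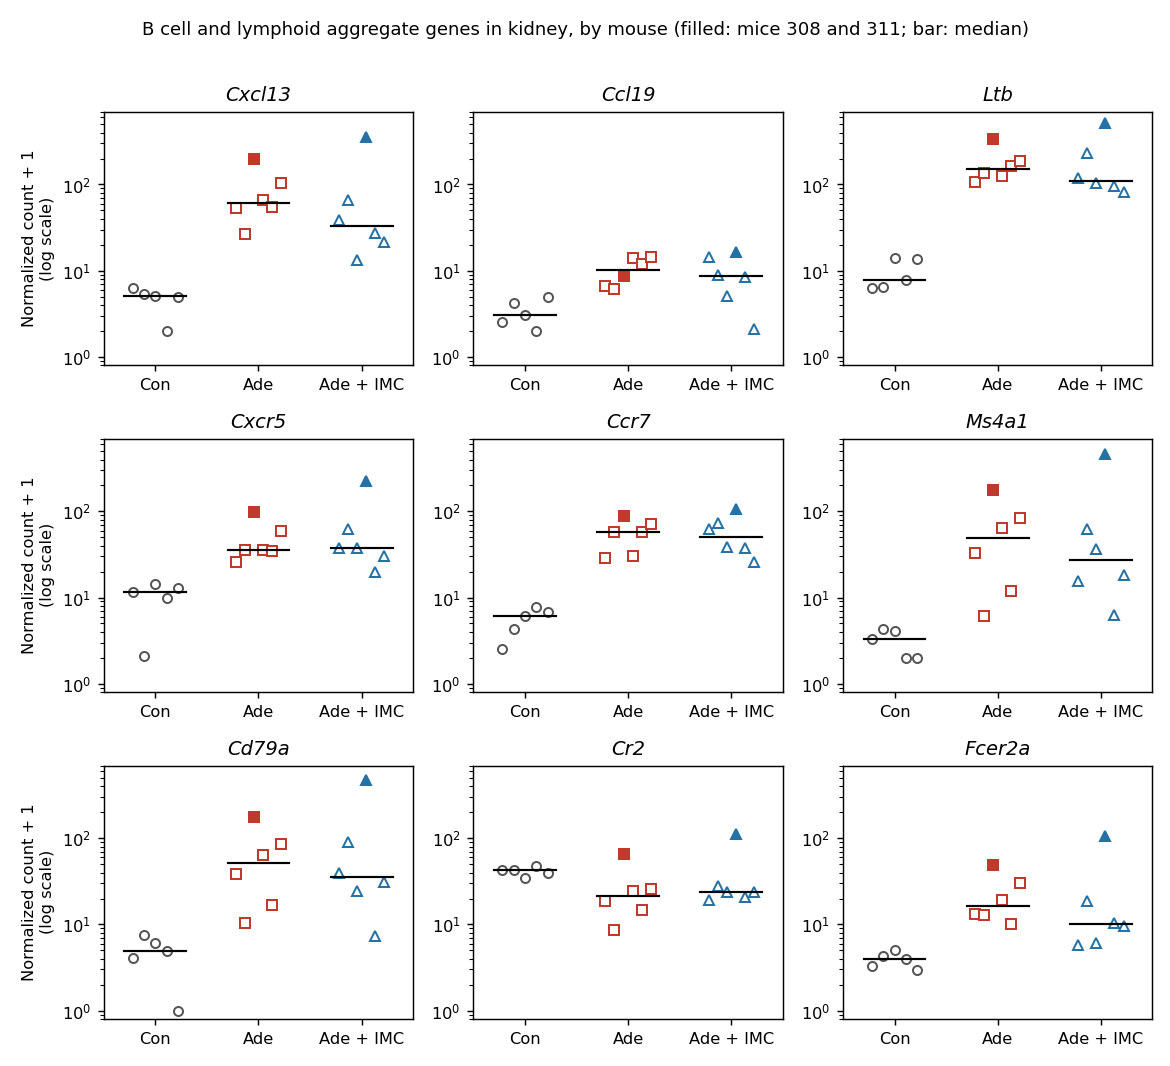
Normalized count + 1 of each member on a log scale, 1 point per mouse (circles Con, squares Ade, triangles Ade + IMC), with filled symbols for mice 308 and 311 and a bar at the group median. In 8 panels every Ade mouse lies above every Con mouse, while in the Cr2 panel the Con mice lie at 33.5 to 46.1 and 10 of the 12 adenine-fed mice lie below them.

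Among the signals, Cxcl13 was nearly silent in Con kidneys, with normalized counts of 5.30, 4.35, 4.06, 0.981 and 3.92 in the 5 mice. In Ade mice its lowest, median and highest values were 25.6, 59.9 and 199, and in Ade + IMC mice they were 12.3, 31.8 and 359. Every adenine-fed mouse thus lay above every Con mouse, and mouse 311 stood far above the other Ade + IMC mice, which reached 64.7 at most. Since edgeR gives no SE, the SE of its fold changes is the absolute log2 fold change divided by the square root of its F statistic. The log2 fold change over Con was 4.43 (SE 0.58, edgeR adjusted p = 2.35e-05) in Ade and 4.50 (SE 1.0, edgeR adjusted p = 0.00188) in Ade + IMC. Without mouse 311 the latter was 3.06 (edgeR adjusted p = 0.000167), still called.

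Ltb, the membrane-bound subunit of lymphotoxin, had normalized counts of 5.30, 5.44, 13.2, 6.87 and 12.7 in Con mice. Its lowest, median and highest values were 106, 150 and 335 in Ade and 80.4, 110 and 514 in Ade + IMC. The groups were far apart, and Ltb had the smallest p-value of the members in Ade against Con, with a log2 fold change of 4.35 (SE 0.37, edgeR adjusted p = 5.67e-07). Between Ade + IMC and Con it was 4.45 (SE 0.60, edgeR adjusted p = 4.29e-05), and 3.86 without mouse 311 (edgeR adjusted p = 1.98e-06).

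Ccl19 stayed low in all mice. Its normalized counts were 1.51, 3.26, 2.03, 0.981 and 3.92 in Con mice, and the lowest, median and highest were 5.13, 9.30 and 13.5 in Ade and 1.07, 7.65 and 15.3 in Ade + IMC. These rest on 1 to 4 reads per Con mouse and 1 to 18 reads per adenine-fed mouse. The mean difference on the log2(normalized count + 1) scale was 1.63 in Ade against Con (two-sided exact permutation p = 0.00216, the smallest that 462 splits can give) and 1.25 in Ade + IMC against Con (exact permutation p = 0.0498, and 0.0741 when mice were permuted within the first digit of their number). Without mouse 311 the latter was 1.03 (exact permutation p = 0.0952). The Ade and Con mice did not overlap, while the Ade + IMC mice overlapped the Con mice.

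The receptors rose in both adenine-fed groups. Cxcr5 had normalized counts of 10.6, 1.09, 13.2, 8.83 and 11.8 in Con mice, and its lowest, median and highest values were 24.6, 34.2 and 98.2 in Ade and 18.8, 36.5 and 222 in Ade + IMC. Its log2 fold change over Con was 2.36 (SE 0.45, edgeR adjusted p = 0.00047) in Ade and 2.87 (SE 0.69, edgeR adjusted p = 0.00306) in Ade + IMC, and 1.97 without mouse 311. This was the smallest rise among the 7 members called in Ade mice.

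Ccr7 was at 1.51, 3.26, 5.07, 6.87 and 5.88 in Con mice. In Ade mice the lowest, median and highest normalized counts were 27.4, 57.2 and 86.9, and in Ade + IMC mice 24.7, 49.6 and 106. Its log2 fold changes over Con were 3.63 (SE 0.41, edgeR adjusted p = 6.95e-06) in Ade and 3.64 (SE 0.46, edgeR adjusted p = 2.53e-05) in Ade + IMC. The highest Ccr7 value was 3.17 times the lowest in Ade, close to the 3.16 times of Ltb, and 4.32 times in Ade + IMC, against 6.40 times for Ltb, and no mouse stood apart.

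The B cell markers Ms4a1 and Cd79a had wide ranges in adenine-fed mice. Ms4a1 was at 2.27, 3.26, 3.04, 0.981 and 0.979 in Con mice, or 11 reads in all, and its lowest, median and highest values were 5.13, 47.8 and 177 in Ade and 5.24, 26.5 and 462 in Ade + IMC. The highest value was 34.6 times the lowest in Ade and 88.3 times in Ade + IMC. The log2 fold change over Con was 4.82 (SE 0.95, edgeR adjusted p = 0.00061) in Ade and 5.52 (SE 1.31, edgeR adjusted p = 0.00291) in Ade + IMC. These were the largest fold changes among the members, with the widest errors. The gene passed the filter on low counts narrowly, since it failed it in Ade against Con without any 1 of 5 of the 6 Ade mice, and in Ade + IMC against Con without any 1 of 5 of the 6 Ade + IMC mice. On the log2(normalized count + 1) scale its mean difference from Con was 3.63 in Ade and 3.58 in Ade + IMC with all mice, and 3.18 without mouse 308 and 2.83 without mouse 311 (exact permutation p = 0.00794 for each, the smallest that 252 splits can give).

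Cd79a was at 3.03, 6.52, 5.07, 3.92 and 0 in Con mice, where a count of 0 allows up to 3 reads. Its lowest, median and highest values were 9.40, 50.1 and 176 in Ade and 6.28, 34.3 and 471 in Ade + IMC. Ade mice lay above all Con mice, while the lowest Ade + IMC mouse fell just within the Con range. The log2 fold change over Con was 4.11 (SE 0.81, edgeR adjusted p = 0.000649) in Ade, where it was 3.52 without mouse 308, and 4.89 (SE 1.15, edgeR adjusted p = 0.00273) in Ade + IMC, where the gene failed the filter without any 1 of 5 of the 6 Ade + IMC mice. On the log2(normalized count + 1) scale its mean difference in Ade + IMC against Con was 3.56 (exact permutation p = 0.00649), and 2.89 without mouse 311 (exact permutation p = 0.0159). Mouse 311 alone held 77.4% of the summed Ms4a1 level of the Ade + IMC mice and 71.4% of that of Cd79a.

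Fcer2a was at 2.27, 3.26, 4.06, 2.94 and 1.96 in Con mice. Its lowest, median and highest values were 9.21, 15.2 and 47.8 in Ade and 4.82, 9.0 and 106 in Ade + IMC, above every Con mouse in both groups. The log2 fold change in Ade against Con was 2.85 (SE 0.51, edgeR adjusted p = 0.000293). The gene failed the filter in Ade + IMC against Con, where the mean difference on the log2(normalized count + 1) scale was 1.86 (exact permutation p = 0.00866), and 1.27 without mouse 311 (exact permutation p = 0.00794).

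Cr2 was the exception. In Con mice it was at 42.4, 42.4, 33.5, 46.1 and 38.2, with little spread (40.5 ± 4.84, mean ± SD, n = 5), although Ms4a1 and Cd79a were almost absent from the same libraries. In Ade mice the lowest, median and highest normalized counts were 7.69, 20.6 and 65.5, and in Ade + IMC mice 18.1, 22.5 and 112. The adenine-fed mice with more Cr2 than every Con mouse were mouse 308 (65.5) and mouse 311 (112), and the other adenine-fed mice reached 26.6 at most, below the lowest Con mouse.

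The fold change of Cr2 therefore depended on these mice. In Ade against Con its log2 fold change was -0.68 (SE 0.39, edgeR adjusted p = 0.149), not called, and without mouse 308 it was -1.18 (edgeR adjusted p = 0.00172), called lower. For Ade + IMC against Con it was -0.11 (SE 0.44, edgeR adjusted p = 0.844), and without mouse 311 it was -0.88 (edgeR adjusted p = 0.000673), called lower. Leaving out any other mouse left Cr2 uncalled in both comparisons. Which cells held the Cr2 reads of Con kidneys was not tested.

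**Figure D2:**
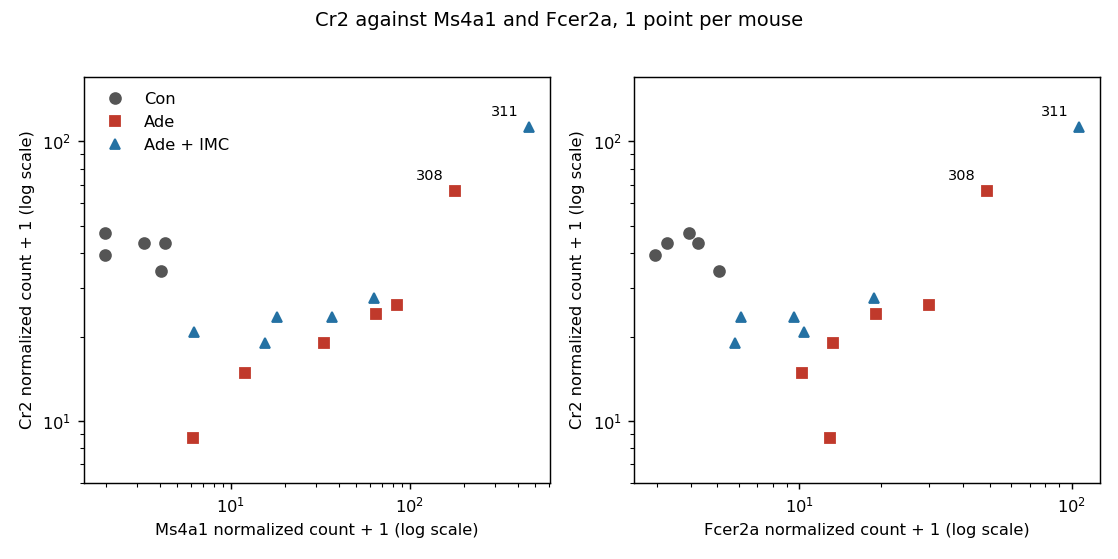
Cr2 normalized count + 1 against that of Ms4a1 (left) and of Fcer2a (right), both axes on a log scale, 1 point per mouse. Con mice have high Cr2 (33.5 to 46.1) at the lowest Ms4a1 and Fcer2a, while among adenine-fed mice Cr2 is highest in mice 308 and 311, which also lead in Ms4a1 and Fcer2a.

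In Ade + IMC against Con, 6 of the 7 members tested were called higher and 0 lower, where 30.9% of all 14578 genes tested were called higher and 32.3% lower. With no filter 8 of the 9 members were called higher and 0 lower, against 25.9% and 24.2% of all 20622 genes. Their median log2 fold change was then 3.62, against 0.03 over all genes. The ranges of the Ade + IMC and Con mice did not overlap for 6 of 9 members, all with Ade + IMC above Con, against 15.4% of all 20622 genes with a read that lay above Con and 12.9% below. Without any 1 Ade + IMC mouse except mouse 410, 4 members were called higher, because Ms4a1 and Cd79a then failed the filter. Both comparisons share the 5 Con mice.

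**Figure D3:**
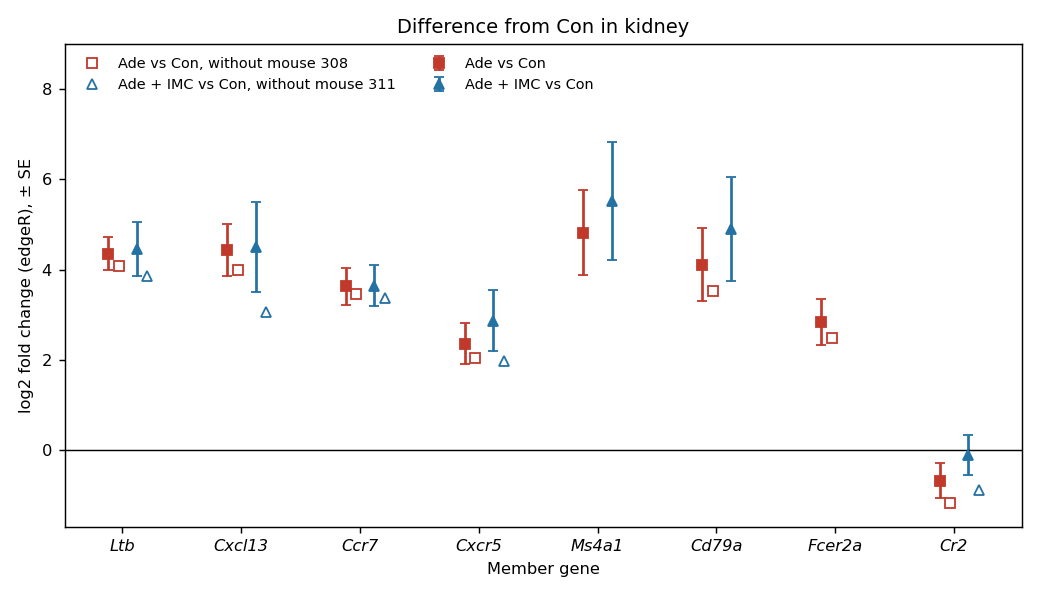
The log2 fold change over Con of the members that passed the filter (filled squares Ade, filled triangles Ade + IMC), with the standard error derived from the F statistic as bars. Open symbols are the value without mouse 308 or mouse 311. With all mice 7 members lie above 2, and Cr2 lies below 0 and is lower still without these mice, at -1.18 and -0.88.

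The direct question of the diet supplement is the comparison of Ade + IMC with Ade. Here none of the 8 members tested was called by limma on log2(normalized count + 1), and 0 of all 14696 genes tested were called (0% of genes), with 988 at an unadjusted p below 0.05. edgeR on recovered reads also called 0 genes and DESeq2 called 37, of which 0 were members. The ranges of both groups overlapped for all 9 members, and over all 21287 genes with a read the Ade + IMC mice lay wholly above the Ade mice in 0.108% and wholly below in 0.094%. The median log2 fold change of the 8 members was -0.03, against 0.01 over all genes tested.

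The differences had wide intervals. For Ltb the log2 difference was -0.12 (95% interval -1.02 to 0.77, limma adjusted p = 0.964), for Ccr7 -0.00 (-0.78 to 0.78, adjusted p = 0.9998) and for Cxcr5 0.14 (-0.94 to 1.21, adjusted p = 0.969). The intervals of the B cell markers were wider still, from -2.19 to 2.08 for Ms4a1 and from -1.83 to 2.01 for Cd79a. For Cxcl13 the log2 difference was -0.66 (95% interval -2.14 to 0.82, limma adjusted p = 0.87). The directions depended on the model, since edgeR on recovered reads gave 0.061 for Cxcl13, 0.038 for Ccr7, 0.12 for Ltb, 0.69 for Ms4a1 and 0.28 for Fcer2a, where limma gave values below 0.

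For Fcer2a the log2 difference was -0.47 (-1.85 to 0.92, limma adjusted p = 0.905), and for Cr2 it was 0.46 (-0.61 to 1.52, limma adjusted p = 0.878). Ccl19, which failed the filter, differed by -0.37 (exact permutation p = 0.511). Two-sided exact permutation tests of single members gave p-values from 0.424 for Cxcl13 to 0.998 for Ccr7, and from 0.333 to 0.817 when mice were permuted within the first digit of their number. The within-digit differences ran from -0.88 for Cxcl13 to 0.24 for Cr2, and all but that of Cr2 were below 0. With that digit as a block, limma called 133 genes, again with 0 members among them.

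Whether the members rose more than leukocyte RNA as a whole was read from their ratio to Ptprc, which encodes CD45, the antigen shared by white blood cells. Ptprc was at 143 to 222 in Con mice and at 613 to 2605 in adenine-fed mice, highest in mice 311 (2605) and 308 (1701). On the log2((normalized count + 1)/(Ptprc normalized count + 1)) scale, the ratio of Ltb rose from -4.33 ± 0.81 (SD, n = 5) in Con to -2.54 ± 0.28 (SD, n = 6) in Ade, a difference of 1.78 (exact permutation p = 0.00216). Cxcl13 rose by 1.59 (exact permutation p = 0.00433) and Ccr7 by 0.94 (exact permutation p = 0.0216) relative to Ptprc, although without Con mouse 201 the difference of Ccr7 was 0.61 (exact permutation p = 0.0619). These p-values are unadjusted, from 27 tests of 9 members in 3 comparisons.

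Relative to Ptprc, the other members except Cr2 did not pass 0.05 in Ade against Con. The difference was -0.76 for Ccl19 (exact permutation p = 0.115), -0.03 for Cxcr5 (p = 0.968), -0.06 for Fcer2a (p = 0.781), 1.25 for Ms4a1 (p = 0.0974) and 1.09 for Cd79a (p = 0.132). Ms4a1 and Cd79a passed 0.05 when mouse 208, which had the lowest levels of both in Ade, was left out (exact permutation p = 0.0238 and 0.0476). Cr2 fell by 3.32 relative to Ptprc (exact permutation p = 0.00216), from -2.14 ± 0.19 in Con to -5.46 ± 0.59 in Ade, with no overlap between the groups. Ptprc itself was higher in every adenine-fed mouse than in every Con mouse, while Cr2 alone did not pass the test (mean log2 difference -0.93, exact permutation p = 0.0671).

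In Ade + IMC against Con, the ratio to Ptprc was higher for Ltb by 1.80 (exact permutation p = 0.00216) and for Ccr7 by 1.08 (exact permutation p = 0.0152), and lower for Cr2, by a log2 ratio difference of -2.72 (exact permutation p = 0.00216), where Cr2 alone differed by -0.48 (exact permutation p = 0.323). For Cxcl13 the difference was 1.06 (exact permutation p = 0.0736), which became 1.34 (p = 0.00794) without mouse 310. Between Ade + IMC and Ade, Cr2 was the one member with p below 0.05, with a ratio higher by 0.60 (exact permutation p = 0.0476). The p-value no longer passed when any of 9 of the 12 mice was left out, although the difference then stayed at 0.42 to 0.65 (exact permutation p = 0.0519 to 0.0952).

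**Figure D4:**
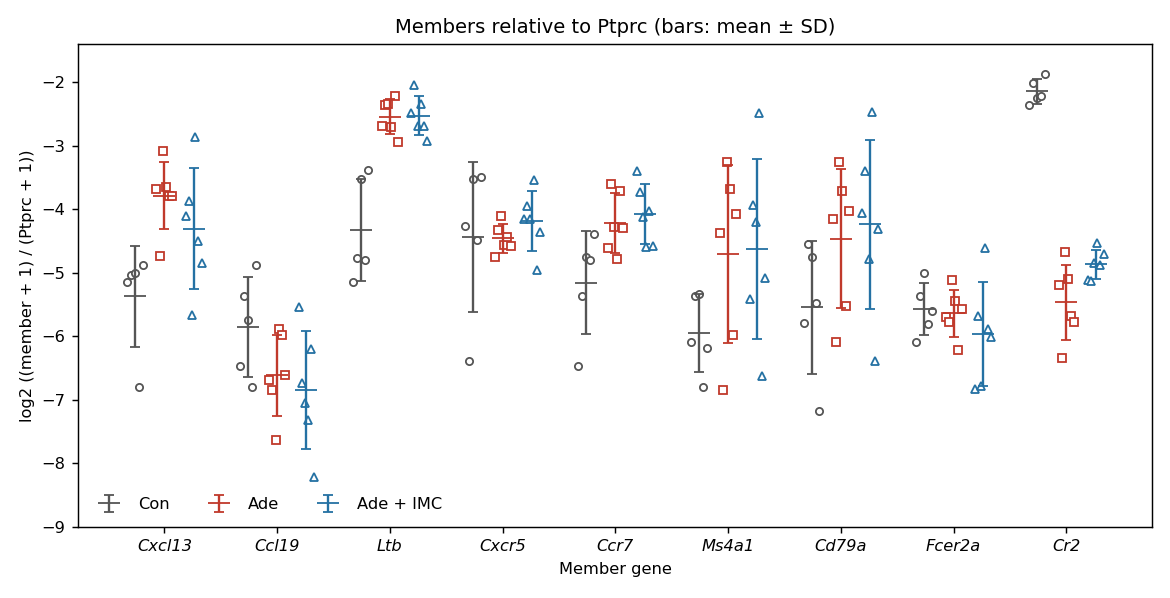
Log2 ratio of each member to Ptprc, with 1 open symbol per mouse and a bar at the mean ± SD of each group (circles Con, squares Ade, triangles Ade + IMC). Ltb lies near -4.33 in Con and near -2.5 in both adenine-fed groups, Cr2 lies at -2.14 in Con and below -4.5 in all adenine-fed mice, and the other members overlap more.

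The order of the members by level was read per kilobase of exon, since genes of unequal length cannot be compared by counts. In Con mice the median normalized count per kilobase was highest for Cr2 (5.23), followed by Ltb (4.53), Cxcl13 (3.53), Cxcr5 (3.18), Cd79a (2.69), Ccr7 (2.56), Ccl19 (2.34), Fcer2a (0.952) and Ms4a1 (0.367). In Ade mice it was highest for Ltb (98.9), followed by Cxcl13 (52.1), Cd79a (34.4), Ccr7 (28.9), Ccl19 (10.7), Cxcr5 (10.3), Ms4a1 (7.72), Fcer2a (4.92) and Cr2 (2.53). Cr2 thus stood at the top of the order in Con and at the bottom in Ade. In Ade + IMC mice Ltb (72.6) and Cxcl13 (27.6) again led, and Cr2 (2.77) was again last. Neighbours in these orders had overlapping ranges between mice, except Fcer2a and Ms4a1 in Con.

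The spread between adenine-fed mice was shared by most members. Mouse 308 was the highest Ade mouse in 8 members and mouse 409 the second in 8, and in Ade + IMC mouse 311 was the highest in 9 and mouse 212 the second in 8. The summed level of the members was 1193 in mouse 308 against 293 to 654 in the other Ade mice, and 2367 in mouse 311 against 224 to 634 in the other Ade + IMC mice. Con mice ranged from 72.8 to 83.1. The numbers of mice 308 and 311 both begin with 3, as does that of mouse 310, which was among the lower mice of its group at 281.

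The lowest members were less uniform. Mouse 208 was the lowest Ade mouse in 5 members, among them Ms4a1 (5.13), Cd79a (9.40) and Cr2 (7.69), yet its Ccr7 (57.3) and Ltb (137) were close to the group medians of 57.2 and 150. Mouse 410 had the lowest Ms4a1 (5.24), Cd79a (6.28) and Cxcr5 (18.8) of the Ade + IMC mice.

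Relations between members were tested over the 12 adenine-fed mice after centring log2(normalized count + 1) on the group means, in 6 pairs chosen by role. The tests asked whether r differed from 0, not whether a pair was closer than other pairs of leukocyte genes. Mice were not permuted within the first digit of their number here. Each r given without 2 mice kept the group means of all adenine-fed mice. Ms4a1 and Cd79a, both expressed throughout the B lineage, had Pearson r = 0.97 (permutation p = 1e-05, the smallest that 100000 resamples can give; adjusted p = 6e-05) and Spearman rho = 0.94 (permutation p = 3e-05, adjusted p = 0.00018), and r was 0.94 without the 2 mice farthest from the median of Ms4a1 (permutation p = 0.00015). Within Ade alone r was 0.998 (exact permutation p = 0.00139) and within Ade + IMC 0.95 (exact permutation p = 0.00833). This was the relation that held without the extreme mice after adjustment over the 6 pairs.

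The relations of the chemokine with its receptor and source signals rested in part on mice 308 and 311. For Ltb with Cxcl13, r was 0.91 (permutation p = 0.00015, adjusted p = 0.000285) with rho = 0.79 (permutation p = 0.00362, adjusted p = 0.00543), and 0.68 without these mice (permutation p = 0.0306, adjusted p = 0.0613). For Cxcl13 with Cd79a, r was 0.88 (permutation p = 1e-04, adjusted p = 0.000285) with rho = 0.87 (permutation p = 0.0006, adjusted p = 0.0012), and 0.71 without them (permutation p = 0.0235, adjusted p = 0.0613). For Cxcl13 with Cxcr5, r was 0.88 (permutation p = 0.00047, adjusted p = 0.000564) with rho = 0.76 (permutation p = 0.00639, adjusted p = 0.00767), and 0.55 without them (permutation p = 0.0977). These 3 relations therefore did not pass the adjusted threshold of 0.05 without both mice.

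Cr2 and Fcer2a, the markers of mature B cells, moved together within the adenine-fed groups, with r = 0.89 (permutation p = 0.00019, adjusted p = 0.000285) and rho = 0.89 (permutation p = 0.0002, adjusted p = 0.0006). Without mice 308 and 311 r was 0.60 (permutation p = 0.066, adjusted p = 0.0990), so this relation too rested on these mice. For Ccl19 with Ccr7, r was 0.61 (permutation p = 0.0329, adjusted p = 0.0329) and rho 0.54 (permutation p = 0.0737, adjusted p = 0.0737), and r was 0.24 without mice 311 and 412 (permutation p = 0.487). Within groups it was 0.07 in Ade (exact permutation p = 0.856) and 0.88 in Ade + IMC (exact permutation p = 0.0264). Both values of a point come from 1 library.

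Outside the members, the genes whose levels were most like the mean of the 8 members that passed the filter, over the same 12 centred mice, were Slamf6 (r = 0.99), Cd5 (0.99), Lax1 (0.99), Icos (0.99), Glipr1 (0.99), Ptprc (0.98), Btla (0.98), Cd2 (0.98), Siglecg (0.98) and Sec11c (0.98). Siglecg encodes an inhibitory lectin of B cells, Btla an inhibitory receptor of B and T cells, and Cd5, Cd2 and Icos surface proteins best known on T cells. Without mouse 311 these values lay between 0.95 and 0.99. The B cell transcription factor gene Pax5 had 0.96 and the T cell gene Cd3e 0.91, while the macrophage gene Lyz2 had 0.63 and the fat cell gene Adipoq -0.06. These correlations are descriptions over 12 mice in which mice 308 and 311 carry much of the variance.

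The wider B cell program rose as well. Of 18 other B cell genes tested, 18 were called higher in Ade against Con, with a median log2 fold change of 3.55, and 17 of 17 in Ade + IMC against Con, with a median of 4.08. Without mouse 311, 14 of 15 were called higher in Ade + IMC (median 2.68). Several of these genes were nearly absent in Con and passed the filter through the adenine-fed mice, and with no filter 19 of 19 were called higher in each comparison (medians 3.48 and 4.05), against 29.2% of all genes in Ade and 25.9% in Ade + IMC. Ighm, the heavy chain of IgM, was at 102 to 158 in Con mice and at 974 to 60697 in Ade mice, with a log2 fold change of 7.33 (SE 1.01, edgeR adjusted p = 3.61e-05), and 6.62 without mouse 308. Pou2af1, a coactivator of immunoglobulin promoters, had one of 6.03 (SE 0.86) and Tnfrsf13c, the BAFF receptor, one of 5.32 (SE 0.82). Blnk, an adaptor of B cell receptor signalling, and Cd72 were already present in Con, at 218 to 288 and 43.2 to 62.7, and had log2 fold changes of 0.89 (SE 0.10) and 2.53 (SE 0.23).

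Germinal centre genes include those that B cells and helper T cells use to form follicles that refine antibodies. Of 7 tested in Ade against Con, 7 were called higher (median log2 fold change 2.59), and 7 of 7 in Ade + IMC against Con (median 2.64). With no filter 11 of 11 were called higher in each comparison (medians 3.64 and 3.87). The genes of the T cell surface proteins Pdcd1 (4.10, SE 0.55) and Icos (3.88, SE 0.52) and the cytokine receptor Il21r (3.78, SE 0.36) had the largest log2 fold changes in Ade, and the abundant Bcl6 had 0.84 (SE 0.24) and S1pr2 2.14 (SE 0.13).

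Of 10 plasma cell genes tested, 7 were called higher and 1 lower in Ade against Con (median log2 fold change 1.04), and 7 higher and 0 lower in Ade + IMC against Con (median 1.31), where without mouse 311 these were 6 and 1 (median 0.59). Jchain, which joins the units of secreted IgM and IgA, rose by a log2 fold change of 6.38 (SE 0.88), Irf4 by 3.42 (SE 0.48) and Mzb1 by 3.29 (SE 0.73), or 2.69 without mouse 308. Xbp1 and Sdc1, which kidney epithelium also expresses, had 0.43 (SE 0.11) and 2.35 (SE 0.19).

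A wider list held lymphotoxin, its receptor, other ligands and receptors of the TNF family and non-canonical NF-kB genes. Of its 16 genes tested, 14 were called higher and 1 lower in Ade against Con (median log2 fold change 1.59). For Ade + IMC against Con these were 11 higher and 1 lower of 14 (median 1.11), and with no filter 14 higher and 1 lower of 17 in each comparison. Lta, the other subunit of lymphotoxin, was at 0 to 3.92 in Con mice and at 8.29 to 36.5 in Ade mice, with a log2 fold change of 3.22 (SE 0.56, edgeR adjusted p = 0.000231), and it failed the filter without mouse 308. Its receptor Ltbr, present in all mice, differed little, with 0.17 (SE 0.07, edgeR adjusted p = 0.057) in Ade and 0.03 (SE 0.09, edgeR adjusted p = 0.749) in Ade + IMC. The cytokine genes Tnf (3.43, SE 0.30) and Tnfsf13b, which encodes the B cell survival factor BAFF (3.04, SE 0.25), rose in Ade, as did Tnfrsf1a (0.70, SE 0.08), while Chuk, the kinase subunit IKK-alpha, fell by 0.75 on the log2 scale (SE 0.11).

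Of 11 genes for other lymphoid chemokines and homing molecules, 10 were called higher and 0 lower in each comparison with Con (median log2 fold changes 2.02 in Ade and 1.98 in Ade + IMC). The abundant Cxcl12 was not called, with -0.39 (SE 0.25, edgeR adjusted p = 0.195) in Ade. Il7r, the receptor of interleukin 7, rose by 4.97 (SE 0.28), the adhesion molecules Vcam1 by 3.97 (SE 0.20) and Icam1 by 2.01 (SE 0.15), and the homing integrin gene Itgb7 by 2.76 (SE 0.29).

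Of 10 genes found in follicular dendritic cells, 7 were called higher and 3 lower in each comparison with Con. C4b had a log2 fold change of 4.36 (SE 0.18) in Ade and Clu one of 1.91 (SE 0.23), while Enpp2 fell by 1.31 (SE 0.19). Kidney cells express several of these too, so the list does not single out that cell type, and Cr2 itself, also a gene of these cells, was not called.

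Genes of lymph nodes and their high endothelial venules did not form a common pattern, with 1 called higher and 2 lower of 4 tested in Ade against Con, and 3 higher and 1 lower of 5 in Ade + IMC against Con, or 1 higher and 1 lower of 4 without mouse 311. With no filter, 3 of 8 were called higher and 2 lower in Ade, and 5 higher and 1 lower in Ade + IMC. Pdpn (2.54, SE 0.17) rose and Enpp2 and Prox1 (-0.70, SE 0.28) were lower in Ade. Glycam1, the defining marker of peripheral lymph node venules, was at 0 to 5.11 in all 17 mice. Madcam1, that of mucosal venules, was at 0 to 1.09 in Con, 0.92 to 4.82 in Ade and 1.05 to 6.13 in Ade + IMC, from at most 6 reads in a mouse. The highest Glycam1 value, 5.11 from 6 reads, was in mouse 311, while mouse 308 and the other 5 Ade + IMC mice were at 0. Madcam1 was at 3.41 in mouse 311 and 3.78 in mouse 308, within the range of the other adenine-fed mice.

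Markers of other leukocytes were higher in adenine-fed mice alongside the members. All 15 T cell genes tested were called higher in Ade against Con (median log2 fold change 3.35), as were 10 of 10 dendritic cell genes (2.28) and 10 of 10 macrophage genes (3.33), and the counts were equal in Ade + IMC against Con (medians 3.49, 2.21 and 2.93). Without mouse 311 the T cell median in Ade + IMC was 2.82, with 15 of 15 still called, and 9 of 9 dendritic cell genes were called. The summed level of the T cell genes was 131 to 180 in Con, 885 to 2760 in Ade and 794 to 4187 in Ade + IMC, highest in mice 308 and 311 as for the members. That of the macrophage genes was 1686 to 1940, 10603 to 17773 and 9433 to 15911, with the highest Ade mouse 208, which was low in B cell genes. The part of these cells in the levels of the members was not tested.

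Fat tissue genes showed another pattern. Their summed level over 8 genes was 560 to 977 in Con, 574 to 3352 in Ade and 498 to 13546 in Ade + IMC, highest in mice 207 and 212. In mouse 311 it was 542 and in mouse 308 it was 779, against a Con median of 611, while mouse 212, the highest at 13546, was the second-highest Ade + IMC mouse in 8 of 9 members. The part of fat tissue in the levels of the members was not tested. Of 4 fat genes tested, 2 were called higher in Ade and 4 in Ade + IMC against Con, and without mouse 308 it was 1 of 3 in Ade. With no filter, 5 of 8 were called higher in Ade and 8 of 8 in Ade + IMC.

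**Figure D5:**
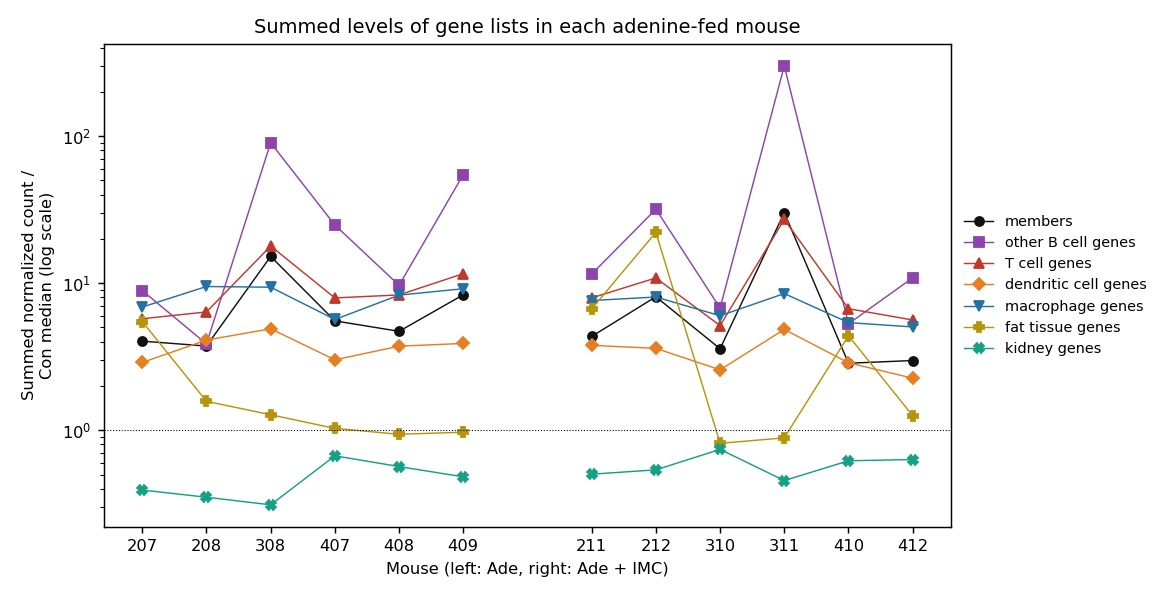
Summed normalized count of each gene list in each adenine-fed mouse, divided by the Con median of the list, on a log scale (left Ade, right Ade + IMC; the dotted line marks the Con median). Members, other B cell genes and T cell genes peak in mice 308 and 311, at 15.2 and 30.2 times the Con median for the members, while macrophage genes stay between 5.04 and 9.49 times and fat tissue genes peak in mice 207 and 212.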

How the data were processed

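Kidney RNA was sequenced by the authors as 50-base single reads. Per the study's methods reads were aligned with STAR to mm10, while the submitters' processing notes name Trimmomatic 0.39, FastQC 0.11.8, Bowtie2 2.2.5 and HTSeq 0.9.1. The authors deposited raw gene counts of Con and Ade mice, and a signal of counts divided by DESeq2 size factors for Ade and Ade + IMC mice, from which whole reads were recovered for 100% of values (tolerance 1e-06). The recovered reads of Ade mice equalled their raw counts. The authors' gene-name table was used for symbols only, and its columns of fold changes and p-values were not used. Con counts were put on the deposited scale with a size factor over 16468 genes. The 20634 genes in both tables entered comparisons of Con with Ade + IMC.

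Ade and Ade + IMC were each compared with Con by edgeR 4.0.16 (quasi-likelihood, TMM, filterByExpr), as the latter needed recovered reads, and the trend method of limma 3.58.1 compared them with each other on log2(normalized count + 1), for genes averaging at least 10. Alternatives included DESeq2 1.42.0. The scripts were tested on simulated data. Listed genes that matched no row were not analysed here, and 1 other gene of the lists is not reported here. Lists without mouse 308 or 311 were added after seeing the data. Members, gene lists and pairs were chosen with earlier results of these data known. Named from each list nearest the members were the 3 most abundant genes and the 3 called genes with the largest fold change; other lists are given by counts. The first digit of the mouse number, whose meaning is not given in the sources used here, was used as a block: deviations of mice with an equal digit correlated at 0.36, 0.37 and 0.20 between Ade + IMC and Ade, but at -0.03 to 0.14 between Ade and Con and at -0.03 to 0.12 between Ade + IMC and Con. Depth was 5444833 to 11680809 reads, and intervals cover the spread between mice.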

Additional observations from a re-analysis of the deposited data

Results flagged for a closer look

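The highest or lowest mouse of a group stood apart from the rest by Dixon's ratio of its gap to the range of the group (95% critical value) in 11 of 57 groups of values, where chance gives about 3. Among Ade + IMC mice, mouse 311 stood apart in Cxcl13 (normalized count 359, others 12.3 to 64.7), Cxcr5 (222, others 18.8 to 61.1), Ltb (514, others 80.4 to 232), Ms4a1 (462, others 5.24 to 62.0), Cd79a (471, others 6.28 to 90.4), Cr2 (112, others 18.1 to 26.6) and Fcer2a (106, others 4.82 to 17.7). It did not stand apart in Ccr7 or Ccl19. Among Ade mice, mouse 308 stood apart in Ltb (335, others 106 to 185) and Cr2 (65.5, others 7.69 to 25.0). These groups of values are not independent, since the members vary together. Mouse 308 also had the lowest total count, 5444833 against 7166746 to 7673215 in the other Ade mice. Relative to Ptprc, neither mouse stood apart in any member. Con mouse 302 stood apart with a low log2 ratio of Cxcl13 to Ptprc (-6.79, others -5.14 to -4.87), which rests on 1 read of Cxcl13.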

How the results depend on the processing

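In Ade against Con, 133 values of single members under an alternative kept their direction and side of the threshold, and 1 crossed it, Cr2 without mouse 308, which took the members called lower from 0 to 1. Between Ade + IMC and Con these were 110 and 1 (Cr2 without mouse 311, members called lower 0 to 1), and 4 values of Cr2 turned sign (without each of 4 mice, range -0.88 to 0.033). Between Ade + IMC and Ade no member was called under any alternative run, but 36 values turned sign. edgeR and DESeq2 on recovered reads gave 0.061 and 0.060 for Cxcl13, 0.038 and 0.050 for Ccr7, 0.12 and 0.12 for Ltb, 0.69 and 0.68 for Ms4a1, and 0.28 and 0.25 for Fcer2a. With the replicate block on the first digit Cxcr5 was -0.12 and Cd79a -0.28, and without mice 308 and 311, chosen after seeing the data, they were -0.072 and -0.18. Leaving out 1 mouse gave -0.31 to 0.39 for Cxcr5, -0.21 to 0.20 for Ccr7, -0.48 to 0.084 for Ltb, -0.80 to 0.44 for Ms4a1 and -0.58 to 0.62 for Cd79a. Over all genes in this comparison, DESeq2 called 37, the block 133 in limma and 104 in edgeR (added after seeing the data), against 0. The cause was not tested. The block changed no call of a member in any comparison. Members called higher over Con ranged from 6 to 7 in Ade and from 4 to 6 in Ade + IMC without 1 mouse.

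Relative to Ptprc, a pseudocount of 0.5 gave 0.080 for Cxcr5 and 0.10 for Fcer2a in Ade against Con. Without 1 mouse, members with p below 0.05 ranged from 2 to 5 higher and 1 to 2 lower in Ade against Con, from 2 to 4 and 1 to 2 in Ade + IMC against Con, and from 0 to 1 higher in Ade + IMC against Ade. Differences that turned sign ranged from -0.52 to 0.21 for Cxcr5 and -0.19 to 0.077 for Fcer2a in Ade, from -0.24 to 0.48 for Cxcr5 in Ade + IMC against Con, and in Ade + IMC against Ade from -0.49 to 0.041 for Ccl19, -0.082 to 0.093 for Ltb, -0.35 to 0.48 for Ms4a1 and -0.13 to 0.66 for Cd79a. Without the 2 mice farthest from the median, r was 0.55 for Cxcl13 with Cxcr5, 0.24 for Ccl19 with Ccr7, 0.68 for Ltb with Cxcl13, 0.71 for Cxcl13 with Cd79a and 0.60 for Cr2 with Fcer2a, none past the adjusted threshold of 0.05. Those values kept the group means of all adenine-fed mice. With mice 308 and 311 left out before the group means were taken, r was 0.53, 0.59, 0.67, 0.70 and 0.60 for these pairs. Without 1 mouse Ccl19 with Ccr7 ranged from 0.42 to 0.76. Con levels of 0 to 13.2 limit the precision of the fold changes of all members but Cr2.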
